A study of Homo sapiens with 30 samples.

Results

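U251 cells, a human glioblastoma line, were compared after 3 days of interferon-γ (IFN-γ) and without it, in 6 of the 30 RNA-seq libraries of a study of 2 glioblastoma lines. The 3 libraries labelled Day 3 with IFN-γ (D3) were set against the 3 control libraries (Untreated), and every gene with a mean of 0.5 TPM or more over these 6 libraries was tested, 23044 of the 61471 genes of the table. TPM, the unit of the deposited tables, is a gene's share of all RNA of a library, corrected for transcript length. The labels call the tables TPM and a supplementary sheet calls them CPM, which has no such correction, so levels of different genes are set side by side here only as deposited. U251-MG came from ATCC, is wild type in its labels and was grown in DMEM with 10% serum, and the 3 replicates of a group were separate cultures. The labels give the dose as 1 µg/mL in one field and 1 µL/mL in another, the published methods give another dose, and the dose is therefore uncertain here. The labels also place the Untreated cells at day 3, where the methods place them at day 0. Neither line was re-authenticated for the study, and both are on lists of often misidentified lines. The other groups used here were U251 after 14 and 28 days of IFN-γ (D14 and D28, 3 libraries each), and U87-MG, the other glioblastoma line, at D3 (2 usable libraries) and Untreated (3 libraries).

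IFN-γ is made by activated T cells and natural killer cells. It binds the receptor IFNGR1-IFNGR2, whose kinases JAK1 and JAK2 phosphorylate STAT proteins, and STAT dimers bind gamma-activated sites in the promoters of their target genes. Among these is IRF1, a transcription factor that acts on interferon-stimulated response elements, and CIITA, the regulator of MHC class II genes. In brain tumours the cytokine is known for raising antigen presentation and chemokines, and also the inhibitory molecules PD-L1 and IDO1.

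The 6 libraries held 24450 to 28365 genes above 0, with no separation of the groups (exact two-sided permutation test, p = 0.2, n = 3 against 3). Across the genes tested, libraries of a group correlated at 0.955 to 0.972 and libraries of different groups at 0.915 to 0.922 (Pearson, log2 scale, across genes, which are not independent replicates). All 10 markers of a glioblastoma line, such as VIM, NES, SOX2 and GFAP, were above the level filter, and their summed level was 4263 to 4349 TPM in the Untreated libraries and 1771 to 2155 TPM at D3. Olfactory receptor genes, 405 genes with no known role in these cells, read as the floor of the table. Their trimmed mean was 0.00905 ± 0.00374 TPM in Untreated and 0.0203 ± 0.00217 TPM at D3 (SD, n = 3), a difference with an exact two-sided permutation p = 0.1, the smallest that 3 against 3 allows. Their plain mean was 0.0922 ± 0.0255 TPM and 0.146 ± 0.00929 TPM, and 72.3 ± 9.87 and 87.7 ± 3.06 of them were above 0 (SD, n = 3, exact permutation p = 0.1 for each). With each library's trimmed mean subtracted before the fit, 2353 genes were higher and 1101 lower at D3. Without the subtraction the calls, defined below, were 2361 and 1093. The part of the higher plain mean in the calls was not tested. The depth of each library cannot be read from TPM, and a value of 0 sets no bound on the true level.

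After 3 days of IFN-γ, 2361 genes were higher and 1093 were lower than in Untreated cells. These are 10.2% and 4.74% of the 23044 genes tested, with an adjusted p under 0.05 and a difference over 1 on the log2(TPM + 1) scale in limma, which is the sense of rose and fell in all that follows. A log2 difference on this scale understates the change of genes near 0. The median over all genes tested was 0.13, so lists are read against that value and not against 0. The median level over the 6 libraries was 13.2 TPM for genes that fell and 4.59 TPM for genes that rose. Of the genes that rose, 213 were listed at 0 in every Untreated library, and of those that fell, 64 were listed at 0 in every D3 library. The balance between the directions depended on the scaling. Genes that rose made up 68.4% of the calls on TPM as deposited, 61.3% with median-ratio size factors and 48.8% with quantile normalization, under which the median of all genes moved from 0.13 to 0.0030 and 1523 genes rose and 1599 fell.

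**Figure D1:**
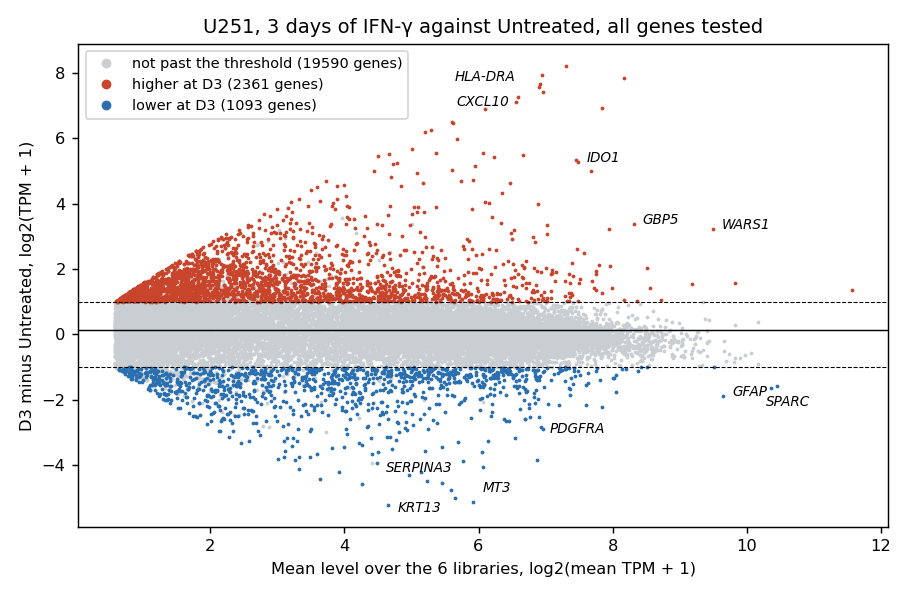
Difference between D3 and Untreated on the log2(TPM + 1) scale (y axis) against the mean level over the 6 libraries (x axis, log2 scale) for the 23044 genes tested in U251. Red points are the 2361 genes that rose and blue points the 1093 that fell, the dashed lines mark a difference of 1 in either direction and the solid line the median of all genes, 0.13. The rises reach 8.21 and the falls -5.20.

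The 12 largest rises among genes with a mean of 5 TPM or more held 6 MHC class II genes, 3 chemokines, 2 pseudogenes and CMPK2. Class II molecules present peptides to CD4+ T cells, and chemokines draw leukocytes into tissue. HLA-DRA, the class II alpha chain, was listed at 0 in all 3 Untreated libraries and stood at 201, 293 and 238 TPM at D3. CD74, the invariant chain that guides class II molecules to endosomes, was at 1.04, 0.942 and 2.88 TPM in the Untreated libraries and 469, 711 and 540.1 TPM at D3 (log2 difference 7.83 ± 0.21 (SE), adjusted p = 3.9e-12). No D3 value of either gene came near an Untreated one. The other class II genes of the 12 were HLA-DRB1, HLA-DPA1, HLA-DPB1 and HLA-DOA. HLA-DPA1 rose from 2.81 ± 0.724 to 452 ± 46.6 TPM (mean ± SD, n = 3 each). Reads of HLA-DRB1 and its near copy HLA-DRB5 are hard to separate, and the values of both are uncertain for that reason. LGALS17A, a galectin pseudogene, showed the largest difference of all, from 0.0594 ± 0.103 to 315 ± 59.1 TPM. GBP1P1, a pseudogene of GBP1, was at 183, 198 and 192 TPM at D3 and may share reads with GBP1. CMPK2, a mitochondrial nucleotide kinase induced by interferons, was at 0, 0.322 and 0 TPM in the Untreated libraries and 90.9, 94 and 104 TPM at D3 (log2 difference 6.47 ± 0.14 (SE), adjusted p = 6.3e-13).

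**Figure D2:**
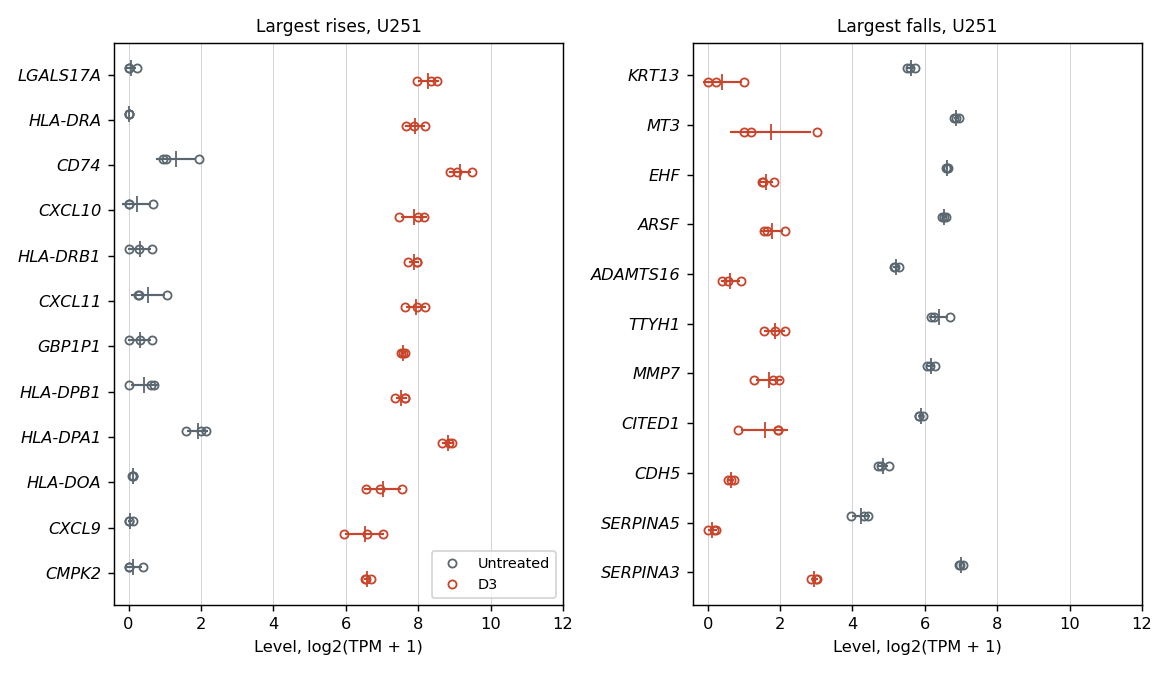
Levels of the 12 genes with the largest rises (left) and of 11 of the 12 with the largest falls (right) in U251, on a log2(TPM + 1) axis. Open circles are single libraries, grey for Untreated and red for D3 (3 each), vertical ticks are group means and horizontal bars the SD. The groups do not overlap for any gene drawn, which the rule that chose them required.

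The signalling chain itself changed in part. Of the 12 receptor, JAK and STAT genes, 3 rose, none fell and 9 did not pass (median 0.25, against 0.13 over all genes). The share that rose was 25%, beside 10.2% of all genes tested. JAK2, a kinase of the receptor, was at 8.81, 14.4 and 6.53 TPM in the Untreated libraries and 54.8, 63.4 and 60.4 TPM at D3 (log2 difference 2.53 ± 0.19 (SE), adjusted p = 1.73e-07), with the groups far apart. STAT2, best known from type I interferon signalling, rose from 50.9 ± 1.88 to 147 ± 3.43 TPM. The receptor chain IFNGR2 was at 94, 96.3 and 104 TPM in the Untreated libraries and 57.3, 64.2 and 59.2 TPM at D3, a difference of -0.69 with adjusted p = 4e-06 that stopped short of the threshold of 1. JAK1 was at 92.7 ± 5.15 and 76.1 ± 5.33 TPM and STAT3 at 142 ± 4.86 and 123 ± 5.29 TPM, and neither passed. Among the interferon regulatory factors, 2 of 6 tested rose. IRF1 reached 514, 721 and 533 TPM from 137, 142 and 145 TPM, with D3 replicate 2 above the other D3 libraries. IRF9, the DNA-binding subunit of the factor ISGF3, rose from 34.8 ± 1.32 to 103 ± 1.53 TPM. IRF7, which drives the type I interferon loop, was at 0.936, 2.28 and 0.891 TPM and then 2.04, 0.203 and 2.36 TPM, with no separation. IRF4 and IRF8 were below the level filter, IRF8 at 0 in all Untreated libraries.

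The feedback regulators of the pathway rose in 3 of 11 cases, 27.3% beside 10.2% of all genes tested, with none lower (median 0.41). With quantile normalization or size factors 1 was lower. SOCS1, which binds and blocks JAK kinases, rose from 2.79, 2.84 and 2.84 TPM to 32.5, 39.3 and 35.5 TPM (log2 difference 3.26 ± 0.14 (SE), adjusted p = 6.28e-10). The ISG15 protease USP18, which also shields IFNAR2 from JAK1, rose from 24.3 ± 2.76 to 66.3 ± 4.22 TPM. The ubiquitin ligase TRIM21 rose from 25.1 ± 2.58 to 71.5 ± 5.66 TPM. The phosphatases that act on JAK and STAT proteins showed smaller differences. PTPN1 was at 81.2 ± 2.14 and 77 ± 1 TPM (log2 difference -0.08 ± 0.049 (SE), adjusted p = 0.23) and PTPN2 at 63.3 ± 2.53 and 84.3 ± 5.05 TPM (log2 difference 0.41 ± 0.063 (SE), adjusted p = 0.000145). SOCS3, the feedback inhibitor of IL-6 signalling, was at 56.8, 55 and 47.4 TPM in the Untreated libraries and 42.9, 43.5 and 47.1 TPM at D3 and did not pass (log2 difference -0.25).

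Chemokines rose in 7 of the 13 tested and none fell (median 1.40), while 6 of the list were below the level filter. CXCL9, CXCL10 and CXCL11, the ligands of CXCR3 on activated T cells, lie side by side on chromosome 4 (76001275 to 76041415, GRCh38), and all 3 were among the 12 largest rises. CXCL10 was at 0, 0 and 0.608 TPM in the Untreated libraries and 178, 287 and 252 TPM at D3 (log2 difference 7.65 ± 0.18 (SE), adjusted p = 1.58e-12). CXCL11 was at 1.09, 0.189 and 0.227 TPM in the Untreated libraries and 199, 292 and 248 TPM at D3, and CXCL9 at 0.0829, 0 and 0 TPM in the Untreated libraries and 61.1, 128 and 95.2 TPM at D3. In all 3 genes D3 replicate 1 was the lowest and replicate 2 the highest of the D3 libraries, and the Untreated values stayed near 0. CCL8, a monocyte attractant listed at 0 in all Untreated libraries, reached 2.83, 12.5 and 8.5 TPM. CCL5, another T cell attractant, rose to only 2.88, 8.7 and 4.18 TPM from 0.786, 0.272 and 0.32 TPM. The neutrophil attractants CXCL2 and CXCL8 did not pass, with 31.6 ± 3.21 and 53.6 ± 7.06 TPM for CXCL8 (log2 difference 0.74). CCL2, which attracts monocytes, was at 23.7, 17.8 and 21.4 TPM in the Untreated libraries and 14.7, 26.4 and 20.04 TPM at D3 (log2 difference -0.07 ± 0.18 (SE), adjusted p = 0.795).

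Short motifs that STAT and IRF factors are known to bind were looked for in the promoters. The 300 bases from 250 before to 50 after the start of the gene were taken from RefSeq (GRCh38.p14), which gave a promoter for 13337 of the genes tested and for 9 of the 12 largest rises. The motifs searched, on both strands, were TTCNNNGAA, the core of a gamma-activated site, and the core of an interferon-stimulated response element (ISRE), GAAA and again GAAA with any 2 bases between them, which reads TTTC and TTTC on the other strand. The promoters of 6 genes are printed to show where these motifs lie in genes that rose by large factors. They are those with the largest differences that hold either motif, among the 12 largest rises and the class I, class II, JAK-STAT and guanylate-binding lists. Each runs 5′ to 3′ with the gene, from 250 bases before to 30 after its start, and capitals mark the motif. They are CXCL10 (chr4:76023468-76023747, minus strand), CXCL11 (chr4:76036041-76036320, minus strand), CXCL9 (chr4:76007480-76007759, minus strand), GBP4 (chr1:89198913-89199192, minus strand), GBP1 (chr1:89065179-89065458, minus strand) and HLA-DQA1 (chr6:32637156-32637435, plus strand).
CXCL10: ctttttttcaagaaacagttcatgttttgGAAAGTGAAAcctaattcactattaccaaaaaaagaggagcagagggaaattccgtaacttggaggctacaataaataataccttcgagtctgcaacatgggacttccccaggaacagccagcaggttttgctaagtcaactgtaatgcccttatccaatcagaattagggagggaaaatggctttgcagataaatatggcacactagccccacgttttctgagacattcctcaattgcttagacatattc
CXCL11: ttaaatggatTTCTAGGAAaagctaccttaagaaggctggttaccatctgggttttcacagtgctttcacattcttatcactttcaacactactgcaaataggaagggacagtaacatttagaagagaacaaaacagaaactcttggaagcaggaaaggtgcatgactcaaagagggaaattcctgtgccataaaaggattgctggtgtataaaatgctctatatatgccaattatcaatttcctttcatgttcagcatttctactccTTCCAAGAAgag
CXCL9: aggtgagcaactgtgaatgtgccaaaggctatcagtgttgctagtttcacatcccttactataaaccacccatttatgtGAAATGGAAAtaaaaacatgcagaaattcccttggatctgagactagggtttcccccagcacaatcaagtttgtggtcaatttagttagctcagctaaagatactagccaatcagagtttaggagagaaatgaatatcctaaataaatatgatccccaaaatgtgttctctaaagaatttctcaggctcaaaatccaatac
GBP4: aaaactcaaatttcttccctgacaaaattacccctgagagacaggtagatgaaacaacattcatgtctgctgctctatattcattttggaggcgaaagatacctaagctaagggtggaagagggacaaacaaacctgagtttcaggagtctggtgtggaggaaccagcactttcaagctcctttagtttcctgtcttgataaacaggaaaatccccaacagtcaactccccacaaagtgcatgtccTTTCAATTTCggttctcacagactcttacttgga
GBP1: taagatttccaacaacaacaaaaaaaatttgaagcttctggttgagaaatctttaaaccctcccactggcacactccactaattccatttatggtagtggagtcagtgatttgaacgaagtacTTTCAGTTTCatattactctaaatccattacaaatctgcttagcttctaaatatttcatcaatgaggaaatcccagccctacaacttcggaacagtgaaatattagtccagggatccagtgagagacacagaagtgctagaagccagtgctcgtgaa
HLA-DQA1: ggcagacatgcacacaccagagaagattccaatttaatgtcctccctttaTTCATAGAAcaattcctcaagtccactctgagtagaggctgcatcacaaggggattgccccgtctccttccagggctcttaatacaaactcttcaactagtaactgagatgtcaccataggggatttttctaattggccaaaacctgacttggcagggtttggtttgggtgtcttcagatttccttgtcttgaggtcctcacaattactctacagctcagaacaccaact

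In CXCL10 the ISRE core begins 221 bases before the start, in CXCL9 171 bases before it and in GBP1 127 bases before it, while in GBP4 it begins 4 bases before the start, and in GBP1 and GBP4 it is read on the other strand. CXCL11 holds TTCNNNGAA 240 bases before and again 18 bases after the start, and HLA-DQA1 holds it 200 bases before. The motif TTCNNNGAA was found in 7.88% and the ISRE core in 3.65% of 27305 promoters of that length, and in 6.58% and 2.98% of the 13337 promoters of genes tested. Of the promoters of genes that rose, 118 of 1202 held the first (9.82%) and 83 held the other (6.91%). Of the promoters of genes that fell, 42 of 670 (6.27%) and 14 (2.09%) did. Among the antiviral genes that rose, 20 of 30 promoters held the ISRE core and 7 held TTCNNNGAA, with an overlap of the motifs in 4 promoters. Of the 12 promoters of class II genes that rose, 1 held TTCNNNGAA and 0 held the ISRE core. A match is a string of letters and not a measured binding site.

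Guanylate-binding proteins (GBPs) are large GTPases that attack the vacuoles of intracellular pathogens. Of the 8 genes of the list 7 rose, with a median of 2.40, and these are all 7 genes of the cluster on chromosome 1 (89006679 to 89388160). GBP1 was at 49.9, 44.4 and 45 TPM in the Untreated libraries and 413, 487 and 434 TPM at D3 (log2 difference 3.23 ± 0.068 (SE), adjusted p = 5.48e-13). GBP5 was at 511, 700.5 and 526 TPM at D3 and 59.1, 48.9 and 55.5 TPM before. GBP4 rose from 6.87 ± 0.806 to 129 ± 22.7 TPM, an 18.7-fold difference of the means, and GBP2 from 82.1 ± 7.54 to 246 ± 48 TPM, a 3-fold difference. GBP6 was at 0.264, 0.0863 and 0 TPM and then at 8.97, 10.8 and 10.4 TPM. The autophagy GTPase IRGM, on another chromosome, was at 1.03 ± 0.567 and 1.24 ± 1.3 TPM and did not pass. All 5 apolipoprotein L genes tested rose too, a family of channel-forming proteins clustered on chromosome 22 (median 2.71). APOL3 rose from 13 ± 2.7 to 147 ± 29.9 TPM, APOL6 from 13.6 ± 1.05 to 94 ± 2.08 TPM and APOL4 from 0.653 ± 0.469 to 29.97 ± 7.87 TPM. The gene RBFOX2 inside this cluster, an RNA splicing factor and no member of the family, did not pass (log2 difference -0.06).

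MHC class I genes, which show peptides to CD8+ T cells, were already expressed in Untreated cells. Of 17 class I genes 10 rose, none fell, and the median was 1.36. NLRC5, the transactivator of class I, was at 62.2, 56.5 and 59.1 TPM in the Untreated libraries and 269.7, 284 and 270.2 TPM at D3 (log2 difference 2.19 ± 0.082 (SE), adjusted p = 1.38e-10). TAP1 and TAP2, the peptide transporter of the endoplasmic reticulum, rose from 94.1 ± 4.92 to 402 ± 19 TPM and from 49.4 ± 2.2 to 205 ± 18.3 TPM. HLA-B rose from 454 ± 31.3 to 1361 ± 83.9 TPM and HLA-C from 297 ± 14.8 to 866 ± 132 TPM. Reads of the class I genes may be shared between them. The chaperone CALR, which holds class I chains during folding, was at 657 ± 16.9 and 413 ± 63.2 TPM (log2 difference -0.68), and CANX at 354 ± 24.9 and 358 ± 1.72 TPM.

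Of 23 class II genes 15 rose and 1, the cathepsin CTSH, fell, with a median of 3.28. In the stretch of chromosome 6 from HLA-DRA to HLA-DPB1 (32439878 to 33089696), 17 of the 20 protein-coding genes tested rose. In the class I region of the same chromosome, from HLA-F to MICB (29722775 to 31511124), 6 of 38 rose and 1 fell. Those that rose were HLA-B, HLA-C, HLA-E, HLA-F, HLA-G and MICB. The median of the region was 0.15, beside 0.13 over all genes tested, of which 10.2% rose and 4.74% fell. CIITA, the master regulator, was at 2.65, 1.76 and 1.21 TPM in the Untreated libraries and 137, 126 and 128 TPM at D3, a 69.6-fold difference of the means. HLA-DMB, which edits the bound peptide, rose from 0.716 ± 0.23 to 79.4 ± 11.6 TPM and HLA-DOA, its modulator, from 0.083 ± 0.0166 to 134 ± 48.5 TPM, with the D3 libraries of HLA-DOA spread over 122, 188 and 93.1 TPM. The list also holds proteases of the endosome, among which CTSS, which cuts the invariant chain, rose from 24 ± 2.22 to 198 ± 13.1 TPM. CTSL was at 149.7 ± 11 and 167 ± 16.5 TPM, CTSD at 482 ± 7.57 and 559 ± 74.2 TPM and CTSB at 289 ± 9.13 and 199 ± 29.4 TPM, and these 3 did not pass. BRD2, a chromatin reader that lies inside the class II region, was at 155 ± 5.13 and 180.5 ± 18.9 TPM (log2 difference 0.21).

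The inducible proteasome genes rose in 3 of 6 cases. PSMB9, a catalytic subunit of the immunoproteasome, rose from 69.9 ± 1.84 to 253 ± 10.7 TPM, PSMB10 from 102 ± 4.67 to 226 ± 23.1 TPM and the activator subunit PSME2 from 120.4 ± 4.06 to 310.0 ± 36.7 TPM. PSMB8 was at 108, 101 and 108 TPM in the Untreated libraries and 190.3, 185 and 200.3 TPM at D3 and PSME1 at 171 ± 3.58 and 282 ± 43.6 TPM, with differences of 0.86 and 0.71 under the threshold. Of the 14 constitutive core genes none passed (limma, 7 had an adjusted p under 0.05 with differences under 1), and their median was 0.02, with -0.08 under median-ratio size factors, within a range of -0.40 to 0.46.

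Antiviral interferon-stimulated genes, most of them known as targets of type I interferons, rose in 37 of 46 cases and none fell (median 1.93). RSAD2, which makes a chain-ending nucleotide against viral polymerases, was at 0.138, 0.824 and 0.94 TPM in the Untreated libraries and 89.8, 92 and 118 TPM at D3 (log2 difference 5.98 ± 0.17 (SE), adjusted p = 9.64e-12). OAS2, a sensor that activates RNase L, rose from 3.13, 2.48 and 1.61 TPM to 111, 123 and 122 TPM, and all 3 OAS genes clustered on chromosome 12 rose. IFI27 was at 2.42, 5.55 and 0.678 TPM and at 128, 130.4 and 176 TPM. OASL rose from 1.96 ± 0.623 to 93.8 ± 8.32 TPM. Among the 9 members that did not pass were some at high levels in Untreated cells. IFITM3, which blocks viral entry, was at 280.1, 288 and 296 TPM in the Untreated libraries and 372, 562 and 516 TPM at D3 (log2 difference 0.72 ± 0.11 (SE), adjusted p = 0.000182), ADAR at 97.6 ± 1.84 and 170.4 ± 5.5 TPM, and UBE2L6 at 167 ± 2.01 and 262 ± 25.9 TPM. Of the sensors of foreign RNA and DNA, 8 of 14 rose and none fell. RIGI and IFIH1, the cytosolic RNA sensors, rose from 18.2 ± 1.01 to 94.3 ± 4.79 TPM and from 32.4 ± 1.04 to 149 ± 6.71 TPM, TLR3 from 7.72 ± 1.7 to 51.1 ± 4.65 TPM, and the DNA sensor AIM2 from 0.197, 0 and 0.0995 TPM to 8.9, 19.96 and 18.6 TPM. STING1, the adaptor of the cGAS pathway, was at 85.6, 79.8 and 70.7 TPM in the Untreated libraries and 42.9, 51.5 and 54.9 TPM at D3, a difference of -0.65 under the threshold. MAVS, the adaptor of the RNA pathway, was at 51 ± 1.85 and 42.6 ± 0.462 TPM.

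Of 14 interferon genes 13 were below the level filter, IFNG among them at 0 in all 6 libraries. IFNB1, the type I interferon of most cell types, was listed at 0 in all Untreated libraries and at 2.21, 1.09 and 2.11 TPM at D3 (log2 difference 1.46 ± 0.24 (SE), adjusted p = 0.000224), a low level. Its part in the rise of the antiviral genes was not tested.

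Among the cytokines and their receptors 7 of 17 rose and 1 fell. TNFSF13B, the B cell survival factor BAFF, was at 1.9, 0.593 and 1.2 TPM in the Untreated libraries and 61.9, 65.6 and 67.2 TPM at D3 (log2 difference 4.93 ± 0.19 (SE), adjusted p = 1.85e-10). IL18BP, which neutralises IL-18, rose from 5.88 ± 1.06 to 169.5 ± 39.9 TPM, IL15RA, which presents IL-15 to natural killer cells, from 7.25 ± 1.54 to 64.5 ± 12.1 TPM, and the lymphocyte growth factor IL7 from 1.17 ± 0.612 to 30.6 ± 4.38 TPM. LIF, a cytokine of the IL-6 group, fell from 23.7, 29.7 and 20.9 TPM to 4.61, 4.23 and 4.53 TPM (log2 difference -2.22 ± 0.21 (SE), adjusted p = 1.27e-06). IL6 itself was at 122, 119.8 and 108 TPM in the Untreated libraries and 64.9, 65 and 71.4 TPM at D3, a difference of -0.79 under the threshold with no overlap of the groups. CSF1, the macrophage growth factor, was at 277 ± 6.36 and 269 ± 10.8 TPM.

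Complement genes moved in both directions, with 9 of 16 higher and 3 lower, CFD, CFI and CD59 (median 1.31). C3, the central component, was at 7.72, 7.9 and 6.62 TPM in the Untreated libraries and 276, 397 and 355 TPM at D3 (log2 difference 5.34 ± 0.13 (SE), adjusted p = 2.55e-12). SERPING1, the inhibitor of C1, rose from 6.98, 1.86 and 2.65 TPM to 172, 218 and 198 TPM, and the C1 protease C1S from 59.1 ± 8.33 to 223 ± 20.5 TPM. CD55, which protects the cell's own membrane, rose from 13 ± 1.28 to 57.4 ± 5.87 TPM, whereas CD46 with the same role was at 116 ± 4.26 and 124 ± 9.28 TPM and CLU at 353 ± 34.3 and 274 ± 15.1 TPM. Of 10 leukocyte adhesion molecules (median 0.04, and -0.07 with quantile normalization) 1 rose, 10% beside 10.2% of all genes tested, so the list does not stand apart. It was ICAM1, the ligand of LFA-1, at 7.08, 7.77 and 5.36 TPM in the Untreated libraries and 155, 162 and 145 TPM at D3 (log2 difference 4.34 ± 0.12 (SE), adjusted p = 5.98e-12). VCAM1 was at 57.3, 56.4 and 59 TPM in the Untreated libraries and 82.5, 96.7 and 97 TPM at D3, a difference of 0.66, and the T cell ligand CD58 at 153 ± 4.15 and 96.6 ± 3.75 TPM, a difference of -0.66, and neither passed.

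Of 15 NF-κB subunits and targets 1 rose, TNFAIP3, the feedback inhibitor of the pathway (11.5 ± 1.76 and 35.4 ± 4.6 TPM), with a list median of 0.12 (-0.0011 without D3 replicate 2). That is 6.67% of the list, beside 10.2% of all genes tested. Without D3 replicate 2 or 3, without Untreated replicate 2 or 3 or with a pseudocount of 0.1, 2 rose. SOD2 was at 185 ± 5.68 and 284 ± 6.74 TPM and RELA at 131 ± 3.68 and 159.7 ± 17.4 TPM. Of 19 cell death genes 3 rose, 15.8% beside 10.2% of all genes tested, which sets the list little apart. These were the inflammatory caspases CASP1 (34.1 ± 2.53 and 82.3 ± 4.17 TPM) and CASP5 (0, 0.383 and 0 and 14.6, 12 and 11.5 TPM) and MLKL, the effector of necroptosis (14.4 ± 2.04 and 41.9 ± 3.84 TPM). BAX, MCL1 and GSDMD, of apoptosis and pyroptosis, did not pass, with differences of -0.31, -0.17 and -0.07.

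The list of immune checkpoint ligands also holds the enzymes NT5E and ENTPD1 and the receptor CD40. Of its 14 genes tested 6 rose, both enzymes among them, and 1 fell, VTCN1 (median 0.40). CD274, which encodes PD-L1, was at 24.8, 38.5 and 24.8 TPM in the Untreated libraries and 122, 150.3 and 127 TPM at D3 (log2 difference 2.17 ± 0.14 (SE), adjusted p = 3.16e-08). PDCD1LG2, the other ligand of PD-1, rose from 10.8 ± 0.946 to 56.8 ± 4.09 TPM, LGALS9, a ligand of TIM-3, from 3.29 ± 1.37 to 60.5 ± 9.06 TPM, and NT5E, which makes immunosuppressive adenosine, from 41.1 ± 1.6 to 142 ± 14 TPM. CD276 was at 235, 221 and 224 TPM in the Untreated libraries and 145, 177 and 165 TPM at D3 and CD47, the signal against phagocytosis, at 159 ± 3.06 and 202 ± 24.6 TPM, and neither passed. Of 9 enzymes of tryptophan use 4 rose and 1 fell (median 0.25, and -0.04 with quantile normalization). WARS1, the tryptophanyl-tRNA synthetase, was at 142, 139.7 and 133 TPM in the Untreated libraries and 1313, 1351 and 1251 TPM at D3, a 9.44-fold difference of the means. IDO1, which opens the kynurenine pathway, rose from 8.12, 8.24 and 7.55 TPM to 318, 380.3 and 341 TPM. KYNU and KMO further down the pathway rose from 15.8 ± 0.827 to 36.1 ± 5.42 TPM and from 1.3 ± 0.548 to 6.84 ± 0.558 TPM, and the difference of KYNU was not past the threshold with quantile normalization (0.99). QPRT, which leads on to NAD, fell from 4.56, 3.51 and 3.3 TPM to 1.14, 0.832 and 0.508 TPM. TDO2, the other enzyme of the first step, was at 6.04 ± 0.833 and 7.45 ± 1.89 TPM and did not pass.

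Genes of the unfolded protein and ATF4 responses rose in 11 of 26 cases and fell in 1, SDF2L1, with a median of 0.53. The 5 members with the largest rises are known targets of ATF4, the factor of amino acid shortage. CHAC1, which degrades glutathione, was at 22.6, 21.1 and 17.2 TPM in the Untreated libraries and 156, 153 and 167 TPM at D3 (log2 difference 2.91 ± 0.12 (SE), adjusted p = 3.39e-10). SESN2, a sensor of leucine, rose from 14.7 ± 2.73 to 93 ± 7.42 TPM, ASNS, which makes asparagine, from 100.1 ± 11.1 to 310.3 ± 2.59 TPM, PSAT1 of serine synthesis from 58 ± 5.71 to 212 ± 1.38 TPM and STC2 from 57.7 ± 0.625 to 213 ± 5.93 TPM. Among the genes of the list that did not pass were 3 chaperones of the endoplasmic reticulum. HSPA5 was at 360.1, 371 and 386 TPM in the Untreated libraries and 270.3, 292 and 274 TPM at D3 (log2 difference -0.42), HSP90B1 at 658 ± 46.7 and 413 ± 46.6 TPM and PDIA4 at 324 ± 21.9 and 195 ± 15.6 TPM, with the D3 libraries of all 3 genes below the Untreated ones and differences short of the threshold.

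**Figure D3:**
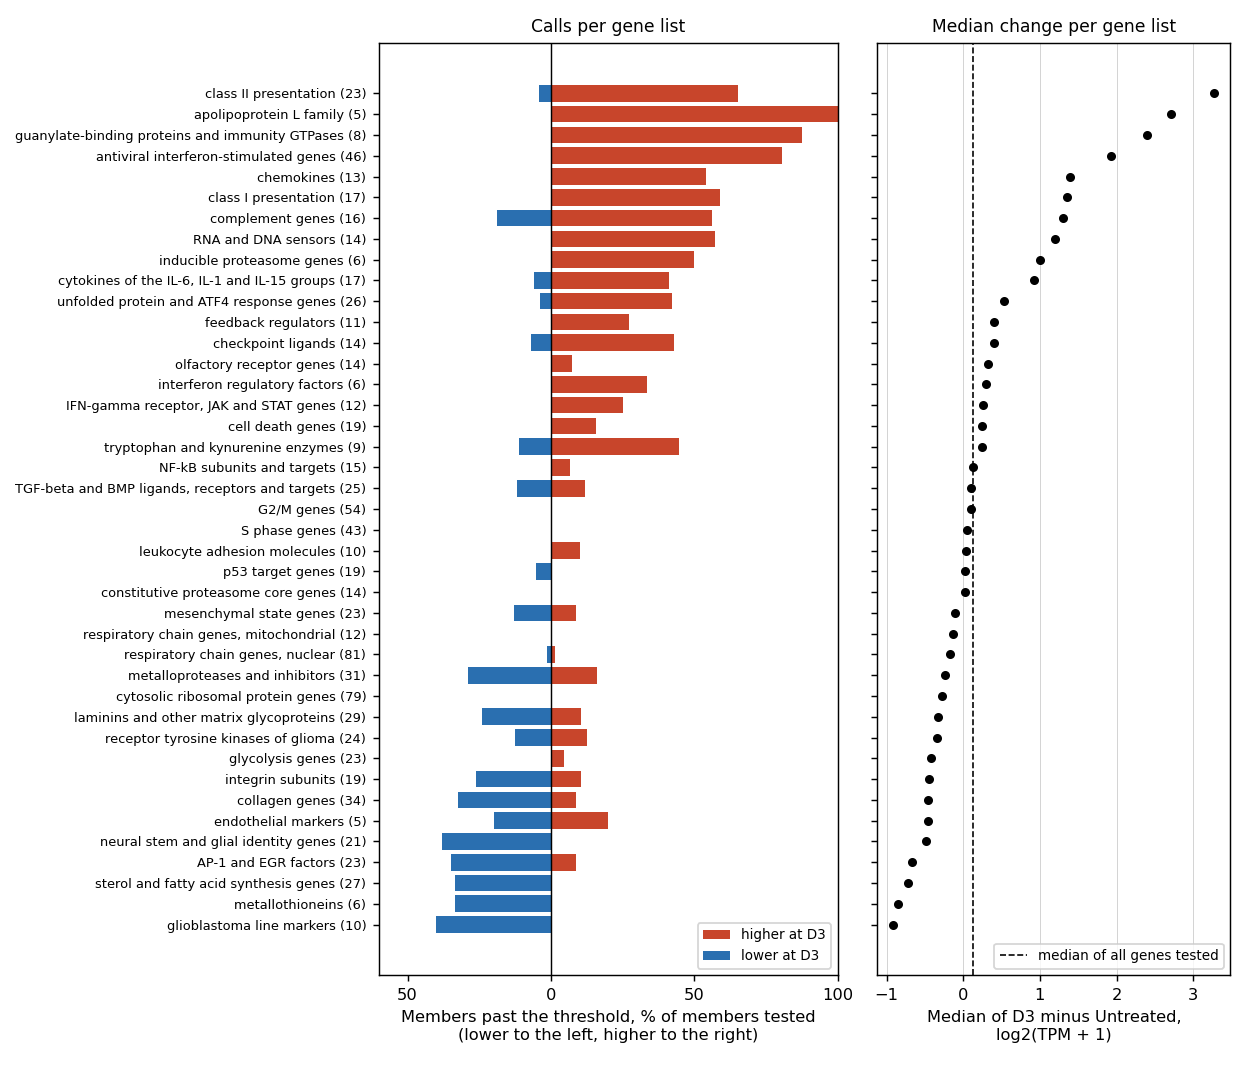
Gene lists with 5 or more members tested in U251, ordered by the median difference between D3 and Untreated. The left panel gives the percentage of members tested that rose (red) or fell (blue), with the number tested in brackets, and the right panel the median on the log2(TPM + 1) scale, with the median of all genes, 0.13, as a dashed line. Class II presentation has the highest median, 3.28, and the glioblastoma line markers the lowest, -0.91.

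Of the 12 largest falls, 11 are described here. KRT13, a keratin, was at 52.3, 47.6 and 44.4 TPM in the Untreated libraries and 0, 1.01 and 0.165 TPM at D3 (log2 difference -5.20 ± 0.32 (SE), adjusted p = 2.02e-08). MT3, the brain metallothionein, fell from 116, 110.2 and 122 TPM to 7.09, 1.29 and 1 TPM, with D3 replicate 1 above the other D3 libraries. EHF, an ETS factor of epithelia, fell from 96.7 ± 1.73 to 2.1 ± 0.399 TPM and SERPINA3, the protease inhibitor antichymotrypsin, from 126 ± 4.64 to 6.72 ± 0.48 TPM. The proteases MMP7 and ADAMTS16 were at 2.95, 1.45 and 2.53 TPM and 0.894, 0.324 and 0.483 TPM at D3, from 76.7, 69.7 and 66 TPM and 35.4, 37.9 and 34.4 TPM. CDH5, the cadherin of endothelium, fell from 27.6 ± 3.06 to 0.565 ± 0.0806 TPM. Also among them were TTYH1, a chloride channel of neural cells (83.2 ± 16.5 and 2.65 ± 0.732 TPM), the sulfatase ARSF (91.4 ± 2.84 and 2.49 ± 0.794 TPM), the transcriptional co-regulator CITED1 (58 ± 2.6 and 2.16 ± 1.2 TPM) and SERPINA5 (18 ± 3.08 and 0.101 ± 0.0891 TPM).

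Genes of neural stem cells and glia fell in 8 of the 21 tested, 38.1% beside 4.74% of all genes tested. None rose (median -0.49, with 1 member higher without Untreated replicate 2), and 11 of the list, such as OLIG2 and SOX10, were below the level filter in this line. GFAP, the intermediate filament of astrocytes, was at 1309, 1246 and 1219 TPM in the Untreated libraries and 299.5, 365 and 361 TPM at D3, a 3.68-fold lower mean at D3 (log2 difference -1.88 ± 0.091 (SE), adjusted p = 1.92e-09). PTPRZ1, a receptor phosphatase of glioma stem cells, was at 179, 172 and 179 TPM in the Untreated libraries and 25.2, 32.3 and 29.4 TPM at D3 (log2 difference -2.57 ± 0.11 (SE), adjusted p = 5.59e-10). CNR1, the cannabinoid receptor, fell from 181, 178 and 191 TPM to 29.2, 32.7 and 32.1 TPM. S100B fell from 184 ± 13 to 43.1 ± 12 TPM, the stem cell filament NES from 168 ± 1.72 to 64.2 ± 4.2 TPM and the proteoglycan CSPG5 from 17 ± 1.03 to 2.62 ± 0.943 TPM. SOX2 and SOX9 are transcription factors of stemness. SOX2 was at 159, 158 and 160.2 TPM in the Untreated libraries and 105, 139.6 and 117 TPM at D3 (log2 difference -0.41) and SOX9 at 155, 154 and 157 TPM in the Untreated libraries and 75.5, 94 and 81.7 TPM at D3 (log2 difference -0.89), and neither passed. SLC1A3, the glutamate transporter of astrocytes, was at 115 ± 13.3 and 104 ± 17.3 TPM with overlapping groups. VIM was at 1141 ± 21 and 641 ± 44.1 TPM and CD44 at 839.8 ± 22.8 and 442 ± 63.2 TPM, with differences of -0.83 and -0.93 under the threshold, and that of CD44 passed with median-ratio size factors (-1.04) or without D3 replicate 2 (-1.05).

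Of 24 receptor tyrosine kinases of glioma 3 were higher and 3 lower (median -0.34), 12.5% each beside 10.2% and 4.74% of all genes tested, and with quantile normalization or size factors 1 was higher and 4 were lower. The share of higher genes was near that of all genes, so the members are described one by one. PDGFRA, the receptor that marks proneural glioblastoma, was at 201, 221 and 217 TPM in the Untreated libraries and 30.7, 25.9 and 30.3 TPM at D3, a 7.35-fold lower mean at D3 (log2 difference -2.84 ± 0.08 (SE), adjusted p = 6.76e-12). NTRK3, the receptor of neurotrophin-3, fell from 62.3 ± 2.84 to 12.4 ± 0.527 TPM, and the collagen receptor DDR1 from 289 ± 2.19 to 143 ± 10.5 TPM, whose difference of -1.01 stood at the threshold and was not past it with quantile normalization (-0.94) or without D3 replicate 1 (-0.96). FGFR1 rose from 39.7, 27.1 and 26.1 TPM to 98.1, 113 and 85.3 TPM (log2 difference 1.66 ± 0.17 (SE), adjusted p = 4.41e-06). MET, EPHA2 and AXL did not pass, with 122 ± 2.01 and 126 ± 10.9 TPM for MET. EGFR was at 103, 104 and 97 TPM in the Untreated libraries and 85.8, 74.3 and 71.7 TPM at D3 (log2 difference -0.39).

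**Figure D4:**
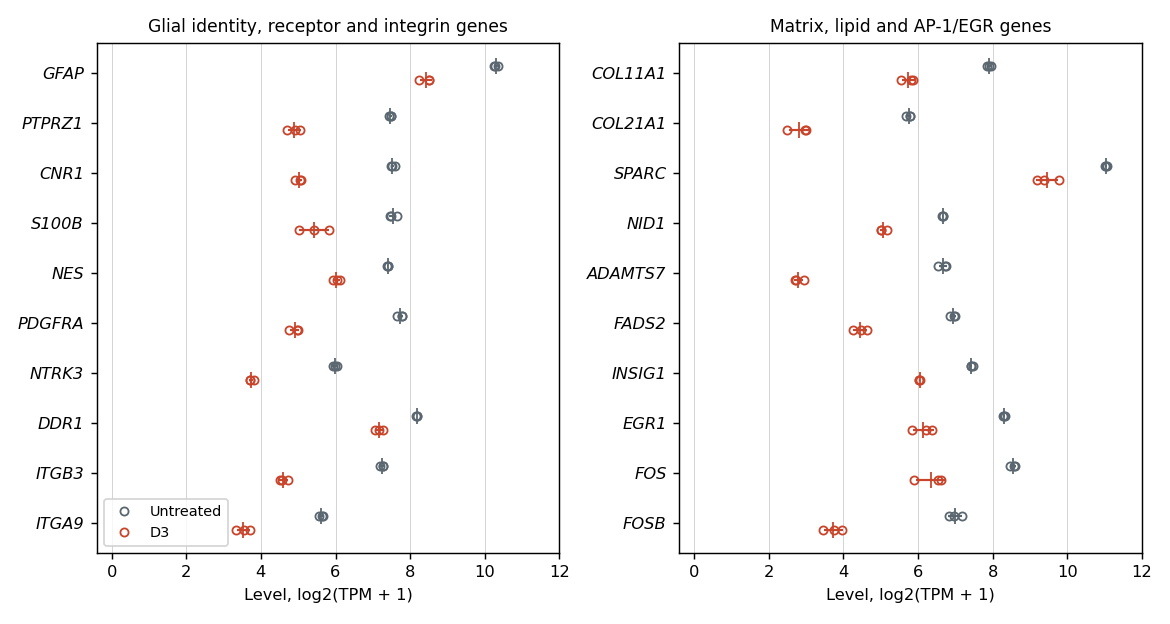
Levels of 20 genes that fell in U251, from the glial identity, receptor and integrin lists (left) and from the matrix, lipid synthesis and AP-1/EGR lists (right), on a log2(TPM + 1) axis. Open circles are single libraries, grey for Untreated and red for D3 (3 each), ticks are group means and bars the SD. For every gene drawn the 3 D3 libraries lie below the 3 Untreated ones. The genes were picked by hand among those that fell, and the groups do not overlap for 1040 of the 1093 genes that fell.

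Collagens are the main fibres of the extracellular matrix. Of 34 collagen genes 11 fell and 3 rose (median -0.46), or 32.4% and 8.82% beside 4.74% and 10.2% of all genes tested. COL11A1, a fibril-forming minor collagen, was at 229.6, 236 and 249 TPM in the Untreated libraries and 57, 54.9 and 45.4 TPM at D3 (log2 difference -2.17 ± 0.088 (SE), adjusted p = 3.07e-10). COL21A1 fell from 53.9, 50.4 and 53.9 TPM to 4.63, 6.92 and 6.84 TPM and COL9A3 from 55.5 ± 10.6 to 7.44 ± 2.3 TPM, while COL17A1, the transmembrane collagen of hemidesmosomes, rose from 5.53 ± 0.731 to 18.7 ± 3.25 TPM. The abundant COL6A2 was at 368 ± 13.3 and 376 ± 19.3 TPM, and COL6A1 at 263 ± 8.49 and 158 ± 16.4 TPM (log2 difference -0.73). Of 29 laminins and other matrix glycoproteins 7 fell and 3 rose, or 24.1% and 10.3%. SPARC, a collagen-binding glycoprotein of glioma, was at 2069.9, 2123 and 2081 TPM in the Untreated libraries and 583, 874 and 664 TPM at D3 (log2 difference -1.58 ± 0.11 (SE), adjusted p = 5.22e-08). MATN2 fell from 159 ± 13.5 to 47.6 ± 6.36 TPM and NID1, the nidogen of basement membranes, from 100.2 ± 1.17 to 32.4 ± 2.07 TPM. TNC was at 381 ± 25.7 and 454 ± 52.4 TPM and VCAN at 240.3 ± 6 and 211 ± 22 TPM, and neither passed.

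Integrins, the receptors of the matrix, fell in 5 of 19 cases and rose in 2, which is 26.3% and 10.5% beside 4.74% and 10.2% of all genes tested. ITGB3, the beta chain of the vitronectin receptor, was at 154, 153 and 145 TPM in the Untreated libraries and 25.6, 21.8 and 22.6 TPM at D3 (log2 difference -2.64 ± 0.082 (SE), adjusted p = 1.79e-11). ITGA9 fell from 48.3 ± 1.79 to 10.6 ± 1.42 TPM, ITGA11 from 65 ± 6.53 to 23 ± 1.85 TPM and ITGB8 from 95.7 ± 3.33 to 39.2 ± 2.16 TPM. ITGB1, the common beta chain, was at 345 ± 12.6 and 227 ± 23 TPM (log2 difference -0.61) and ITGA3 at 413 ± 7.39 and 339 ± 38.2 TPM, short of the threshold. ITGB7, listed among those that rose, was at 1.04, 0 and 0 TPM and 3.33, 0.644 and 3.07 TPM with overlapping groups, and it was not called without Untreated replicate 2 or 3 or without D3 replicate 1 or 3. The count of integrins that rose was 0 without D3 replicate 1 or with quantile normalization, and 1 without Untreated replicate 1 or 3 or without D3 replicate 3. Metalloproteases and their inhibitors fell in 9 of 31 cases and rose in 5, which is 29% and 16.1% beside 4.74% and 10.2% of all genes tested. The count that rose was 3 without Untreated replicate 1 or D3 replicate 1 or with size factors, and 2 with quantile normalization. Beside MMP7 and ADAMTS16, ADAMTS7 fell from 106, 104 and 92.4 TPM to 5.68, 6.63 and 5.47 TPM and ADAMTS15 from 47.1 ± 3.25 to 6.44 ± 0.659 TPM, whereas the stromelysin MMP3 rose from 0.866 ± 0.417 to 6.78 ± 0.686 TPM. MMP2 was at 209 ± 15 and 222 ± 20.1 TPM and TIMP2 at 269.8 ± 11.1 and 177 ± 14.5 TPM.

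Mesenchymal state genes fell in 3 and rose in 2 of 23 cases (median -0.11, and 0.01 with quantile normalization), and 5 fell without D3 replicate 2. The shares were 13% lower and 8.7% higher, beside 4.74% and 10.2% of all genes tested. RUNX2, a factor of bone and mesenchyme, fell from 111 ± 15.4 to 30.5 ± 2.55 TPM and CCN2, a target of TGF-β and YAP, from 287 ± 9.6 to 99.2 ± 8.65 TPM, while the actin-binding TAGLN rose from 10.2 ± 1.22 to 43.3 ± 10.7 TPM and the repressor SNAI2 from 41.2 ± 3.71 to 90.5 ± 3.42 TPM. Of 25 genes of TGF-β and BMP signalling 3 rose and 3 fell, 12% each beside 10.2% and 4.74% of all genes tested, and 5 rose without Untreated replicate 1 or D3 replicate 2. GDF15, a stress cytokine, rose from 41.2 ± 7.28 to 136 ± 5.63 TPM and the BMP antagonist NOG from 1.09 ± 0.96 to 6.77 ± 0.894 TPM, and BMP1, the procollagen protease, fell from 135 ± 6.96 to 50.2 ± 1.71 TPM. ID1 and ID3 were at 239.8 ± 22.4 and 275 ± 24.3 TPM at D3 and 290.1 ± 11.6 and 280.5 ± 2.55 TPM in Untreated, and neither passed.

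Sterol and fatty acid synthesis genes fell in 9 of 27 cases, 33.3% beside 4.74% of all genes tested, and none rose (median -0.72). FADS2, a fatty acid desaturase, was at 127, 124 and 115 TPM in the Untreated libraries and 23.7, 21.3 and 18 TPM at D3 (log2 difference -2.49 ± 0.098 (SE), adjusted p = 2.29e-10). INSIG1, the sterol-sensing regulator, fell from 171 ± 3.15 to 64.8 ± 0.987 TPM and the desaturase SCD from 195 ± 10.1 to 83.2 ± 1.36 TPM. FASN was at 136 ± 8.61 and 106 ± 11.4 TPM and ACLY at 211 ± 12.5 and 173 ± 6.25 TPM, and neither passed. Glycolysis genes stayed under the threshold in 22 of 23 cases, with 20 differences below 0 and a median of -0.42. GAPDH was at 1036, 1016 and 1083 TPM in the Untreated libraries and 498, 700.3 and 593 TPM at D3 (log2 difference -0.82 ± 0.10 (SE), adjusted p = 1.86e-05) and ENO1 at 1224 ± 32.5 and 786 ± 18.7 TPM. ALDOC, the aldolase of brain, was the member that rose (2.75 ± 1.08 and 8.95 ± 2.72 TPM).

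The AP-1 and EGR factors are immediate early genes that follow growth factor signalling, and their list here also holds IER, DUSP, SPRY and ETV genes and MYC. Of 23 tested 8 fell, all of them FOS, JUN, EGR or IER genes, and 2 rose, DUSP4 and ETV1 (median -0.67). The shares were 34.8% lower and 8.7% higher, beside 4.74% and 10.2% of all genes tested. FOS was at 382, 349 and 387 TPM in the Untreated libraries and 58, 96 and 91.1 TPM at D3 (log2 difference -2.21 ± 0.15 (SE), adjusted p = 5.86e-08), and EGR1 at 311, 321 and 316 TPM in the Untreated libraries and 56.5, 82.5 and 72.6 TPM at D3 (log2 difference -2.16 ± 0.11 (SE), adjusted p = 2.14e-09). FOSB fell from 144, 125 and 112 TPM to 10.01, 12.5 and 14.6 TPM, EGR2 from 38.3 ± 7.47 to 2.25 ± 1.1 TPM and EGR3 from 14.5 ± 5.42 to 0.617 ± 0.48 TPM. FOSL1 was at 144 ± 2.6 and 182 ± 21.5 TPM and MYC at 141 ± 8.15 and 114 ± 10.6 TPM, and neither passed. Of 19 p53 targets (median 0.02, and -0.06 with quantile normalization) 1 fell, BTG2 (49.7 ± 1.53 and 11.3 ± 1.17 TPM), 5.26% beside 4.74% of all genes tested, 2 fell without Untreated replicate 2, and GADD45A was at 77.5 ± 1.18 and 153 ± 12.3 TPM, a difference of 0.97 that passed without D3 replicate 2 (1.03). Among metallothioneins MT1F fell from 153 ± 5.43 to 73.2 ± 19.9 TPM beside MT3, a call that was lost without D3 replicate 3 (-0.94). MT2A was at 525, 560.3 and 596 TPM and 285, 543 and 333 TPM, with D3 replicate 2 inside the Untreated range, and the MT1 genes are near copies whose reads may be shared.

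Genes of general cell function were read from 5 lists. None of 79 ribosomal protein genes passed, and their median was -0.28. RPS24 was at 749.6 ± 40.6 and 514 ± 24.3 TPM and RPL26 at 866 ± 30.8 and 748 ± 61.5 TPM. Of 81 nuclear genes matched by symbol to the respiratory chain, pseudogenes included, 1 rose, NDUFA4L2, a hypoxia-induced subunit-like protein (3.57 ± 0.895 and 18.1 ± 2.09 TPM), and 1 fell, the pseudogene NDUFB9P2, whose call was lost without any 1 of the D3 libraries. None of 12 mitochondrial genes passed (median -0.13, with the sign turned by quantile normalization, 0.05, and without Untreated replicate 2, 0.06), and MT-CO1 was at 622 ± 169.5 and 558 ± 125 TPM. S phase genes (43 tested, median 0.05) and G2/M genes (54 tested, median 0.10) had no member past the threshold, and with median-ratio size factors their medians were -0.05 and -0.0014. MCM7, a subunit of the replicative helicase, was at 165, 179 and 199 TPM in the Untreated libraries and 189, 159.9 and 198 TPM at D3 (log2 difference 0.01 ± 0.084 SE). HMGB2 was at 183 ± 18.2 and 184 ± 11.1 TPM and RRM2 at 174 ± 9.64 and 198 ± 9.02 TPM. In these 5 lists 55, 38, 1, 23 and 17 members that did not pass had an adjusted p under 0.05 in limma. Among 14 olfactory receptor genes over the level filter 1 rose, OR2B6, to 2.18, 1.84 and 2.85 TPM.

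Markers of other cell types were at low summed levels in both groups, except for the endothelial list. The 14 leukocyte markers summed to 4.52 to 6 TPM in Untreated and 8.21 to 10.7 TPM at D3, with CD2, MS4A1 and TYROBP at 0 in all 6 libraries, and of the 3 over the filter CD14 rose (0.569 ± 0.602 and 4.51 ± 1.32 TPM). The 8 epithelial markers summed to 9.62 to 11.2 TPM and 14.8 to 23 TPM, where ESRP1 rose (0.31 ± 0.461 and 10.2 ± 4.06 TPM) and KRT19 fell (4.29 ± 1.22 and 0.869 ± 0.499 TPM), the latter not with a pseudocount of 0.1, and 2 markers rose without D3 replicate 1. The 7 endothelial markers summed to 29.6 to 40.4 TPM in Untreated, most of it CDH5, and to 6.86 to 9.58 TPM at D3, and ESAM rose (0.467 ± 0.537 and 4.12 ± 1.23 TPM). TPM of a culture cannot tell fewer cells with a transcript from less of it in each cell.

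The level at 3 days was compared with later times of exposure. Of the 12 largest rises, 11 were lower at D14 than at D3 and 0 higher, and at D28 2 were higher and 10 did not pass. Of the 12 largest falls, all 12 were higher at D14 than at D3, and at D28 3 were, beside 425 and 111 of all 1093 genes that fell at D3. Over all genes 2.98% were higher and 3.52% lower at D14 than at D3, and 2.23% and 0.473% at D28. The genes were chosen on the same D3 libraries, so these counts describe them and are no independent test. CXCL9 was at 94.9 ± 33.7 TPM at D3, 0.548 ± 0.3 TPM at D14 and 187 ± 14.5 TPM at D28 (D14 minus D3 -5.91, adjusted p = 9.29e-10). CD74 was at 573 ± 124, 71.2 ± 4.32 and 589 ± 37.3 TPM at these times, and IDO1 at 346 ± 31.7, 45.1 ± 8.42 and 401 ± 11.5 TPM. Of the antiviral genes that had risen 2 of 37 were lower at D14, of the class II genes 14 of 15 and of the guanylate-binding proteins 7 of 7, beside 678 of all 2361 genes that rose at D3. RSAD2 was at 100.1 ± 16 TPM at D3 and 93.9 ± 10.6 TPM at D14, and OAS2 at 119 ± 6.67 and 108 ± 2.4 TPM. Among the genes that fell, PDGFRA was at 29 ± 2.65 TPM at D3, 128 ± 6.93 TPM at D14 and 42 ± 3.7 TPM at D28 (D14 minus D3 2.11, adjusted p = 1.08e-09), and COL11A1 at 52.4 ± 6.19, 169 ± 11.2 and 57.7 ± 4.33 TPM. FOS stood at 372 ± 34.6 TPM at D14, near its Untreated level, and at 259 ± 28.3 TPM at D28.

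**Figure D5:**
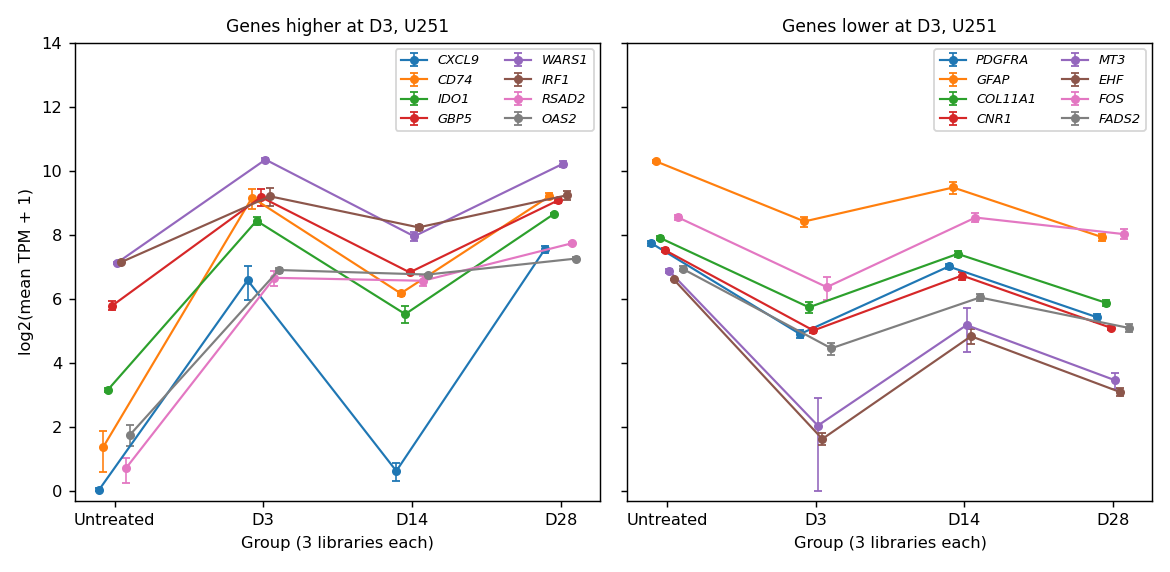
Mean levels of 8 genes that rose at D3 (left) and 8 that fell (right) in U251, on a log2(mean TPM + 1) axis, for Untreated cells and after 3, 14 and 28 days of IFN-γ (3 libraries each). Bars run from the mean minus to the mean plus 1 SD of TPM, cut at 0. CXCL9 goes from 94.9 TPM at D3 to 0.548 TPM at D14, and OAS2 from 119 to 108 TPM. All 8 genes on the right have a higher mean at D14 than at D3 or D28.

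In U87 cells, whose table was scaled separately and where D3 rests on 2 libraries, 6.4% of 21866 genes rose and 0.421% fell after 3 days. Of the 12 largest rises of U251, 11 were tested in U87 and 7 rose. Of the 12 largest falls, 7 were tested and 1 rose, with 0 lower. The lines were not tested against each other. PDGFRA was at 5.68, 4.26 and 3.19 TPM in the Untreated and 5.7 and 4.79 TPM in the D3 libraries of U87 (log2 difference 0.24), against its fall in U251. GFAP was at 5.3, 6.9 and 2.33 TPM and 8.78 and 14.2 TPM there, and PTPRZ1 at 1.2, 1.05 and 0.0897 TPM and 0.278 and 0.181 TPM. Of the 23 class II genes 7 rose in U87 and 0 fell. HLA-DRA was at 185, 183 and 219 TPM and 326 and 316 TPM in U87, where it was not called (log2 difference 0.72). IDO1 rose in U87 from 0.239, 0 and 0 TPM to 81.3 and 85.9 TPM (log2 difference 6.30, adjusted p = 5.91e-10), and GBP5 from 1.85, 1.97 and 0.441 TPM to 53.9 and 57.7 TPM. LIF rose from 54, 64.5 and 49.9 TPM to 137 and 121 TPM and FOSB from 15.1, 22.7 and 13.8 TPM to 39.4 and 52.6 TPM, where both fell in U251.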

How the data were processed

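RNA was sequenced from U251 cells after 3 days of IFN-γ and from Untreated cells, 3 cultures each, with the later times and the U87 line beside them. The authors trimmed the reads (Trim Galore), aligned them to GRCh38 (STAR), counted them per gene (featureCounts) and deposited TPM tables, 1 for each line, each scaled on its own. How TPM was computed is not given in the sources used here, and no depth can be recovered from it. Of the U87 columns 2 share a name and were not used. All 15 U251 libraries were fitted together on log2(TPM + 1) with limma 3.58.1 (eBayes with trend, R 4.3.3), and p-values were adjusted by Benjamini-Hochberg over the 23044 genes with a mean of 0.5 TPM or more over the 6 libraries. A call needed an adjusted p under 0.05 and an absolute difference over 1. The p-values measure the spread between these cultures. The U87 table was fitted in the same way and the lines were not tested against each other. Named genes were the 12 largest rises and falls with a mean of 5 TPM or more and groups apart, and of each gene list up to 5 members past the threshold by size and 4 others by level, with the genes the study names; a few others were named after their values were seen, and a few are not reported here. The members and lists were chosen with earlier results of these data known. Tables were summarised with Python 3.11.15 (pandas 2.3.3, numpy 2.4.6). On simulated data for D3 against Untreated, 92.5% of 200 genes were recovered at a log2 change of 1.5 (23037 genes in that step, 5 false calls) and 98.5% at 2 (23034 genes, 4 false calls). The 200 changed genes were drawn only from those at middle levels in Untreated, with normal noise. Recovery of genes near 0 was not tested. Alternatives changed the pseudocount, the filter, the scaling, the libraries in the fit, the replicate block and the weights. Others subtracted the trimmed mean of the olfactory receptor genes or left out each library in turn.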

Additional observations from a re-analysis of the deposited data

Results flagged for a closer look

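The values of 23 of the 24 genes with the largest changes at D3 differed again between D3 and D14 in U251, by more than 1 on the log2 scale with an adjusted p under 0.05 in limma, and the sign was opposite to that of the change from Untreated to D3 in every one. The 22 values given are differences D14 minus D3 on the log2(TPM + 1) scale, and they share the D3 libraries with the comparison that chose the genes. The MHC class II genes gave -4.27 for HLA-DOA, -2.97 for CD74, -2.26 for HLA-DRA, -2.02 for HLA-DRB1, -1.88 for HLA-DPB1 and -1.55 for HLA-DPA1. The chemokines gave -5.91 for CXCL9, -3.26 for CXCL11 and -2.67 for CXCL10. The pseudogenes LGALS17A and GBP1P1 gave -5.42 and -3.36. Among the genes that had fallen, MT3 gave 3.36, EHF 3.20, KRT13 3.06, CITED1 3.05, CDH5 2.93 and ADAMTS16 2.83. The difference was 2.54 for ARSF, 2.42 for TTYH1, 2.06 for SERPINA3, 1.37 for MMP7 and 1.24 for SERPINA5.

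Among the genes chosen to be named, 4 that fell in U251 after 3 days of IFN-γ rose in U87 (limma, adjusted p under 0.05), and the difference between the lines was not tested. Genes outside that choice were not looked at for opposite calls. In U87 the log2 difference between D3 and Untreated was 1.18 for EGR2, 1.39 for FOSB, 1.19 for LIF and 1.28 for MMP7, over 2 D3 and 3 Untreated libraries.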

How the results depend on the processing

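The counts of 2361 genes higher and 1093 lower at D3 moved by over 1.5 times in 3 settings. With the adjusted p alone and no limit on the difference, 5995 genes were higher and 3855 lower. With a mean of 5 TPM or more, where fewer genes are tested, 1136 were higher, and with quantile normalization 1523. With a pseudocount of 0.1, 2830 and 1199 genes were called, with no filter on low values 2214 and 1037, with size factors 2044 and 1289, and with the 6 libraries alone in the fit 2210 and 1029. Leaving out 1 library gave 2042 to 2450 higher and 995 to 1161 lower. In U87, 8 of the 24 genes with the largest changes were called, and 5 with a mean of 5 TPM or more. U87 has no usable D3 replicate 1 to leave out. The replicate numbers did not pair the samples, since the deviations of D3 and Untreated libraries with the same number correlated at -0.0036, 0.0018 and -0.022, and with the replicate block 2339 genes were higher and 1089 lower. For 313 named genes, 5245 of 5281 values kept their direction and side of the threshold or were never called, 28 lost the call, 8 gained it and 0 reversed.

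The published methods state a minimum depth, but the depth of each library cannot be read from TPM, so no counting error can be given for a level near 0. Each group holds 3 cultures, and the sources differ on the harvest day of the Untreated flasks. Cell numbers and RNA content were not measured here.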
